A study of Mus musculus with 9 samples.

Results

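The genes described here encode 9 enzymes or enzyme subunits of the tricarboxylic acid cycle: Cs, Idh3a, Idh3b, Idh3g, Ogdh, Dlst, Suclg1, Fh1 and Mdh2. They were found by matching Ensembl identifiers to these mouse symbols, and all 9 were present among the 34866 genes of the deposited tables. All 9 passed the filter of a mean of at least 1 TPM in each comparison. TPM is a per-gene level that corrects for transcript length and is expressed relative to the library's total. Gene expression had been measured by mRNA sequencing in cultured mouse primary macrophages, in 3 groups of 3 libraries. Standard oxygen cells were kept 7 days without hypoxia. Acute hypoxia cells were first in standard oxygen and then held at 1% oxygen for 3 hours, and chronic hypoxia cells spent 7 days at 1% oxygen. All groups were grown in vitro in alpha-MEM with serum, PSQ (not spelled out in the labels) and medium conditioned by L929 cells. No genetic change is named for any group, and strain and age are not given in the sources used here. The series calls the replicates biological but does not say whether they came from separate animals, so the p-values measure the spread between these libraries.

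The tricarboxylic acid cycle runs in the mitochondrial matrix. It oxidizes the acetyl group of acetyl-CoA to carbon dioxide, passes the electrons to the respiratory chain as NADH and reduced flavin, and forms GTP or ATP at the succinate-CoA ligase step. Because the respiratory chain uses oxygen to reoxidize NADH, the cycle depends on oxygen, and hypoxic cells are known to divert pyruvate to lactate. In macrophages the cycle is also a source of signals: citrate is exported for lipid synthesis, itaconate is made from a cycle intermediate, and succinate and fumarate can inhibit the oxygen-dependent hydroxylases that mark hypoxia-inducible factor for breakdown.

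Promoters are shown for 3 of the genes because their expression is contrasted below. Idh3b and Idh3g encode partner subunits of 1 enzyme whose ratio was lower in both hypoxia groups, and Mdh2 was the most abundant of the 9 transcripts. The sequences are from RefSeq on GRCm38.p6 and span 250 bases before to 50 bases after RefSeq's gene start, which for Idh3b and Mdh2 differs from the GENCODE start of the gene positions given below, 5' to 3' on the gene's strand. Capitals mark the core of the hypoxia response element, ACGTG or GCGTG, searched on both strands. These are chr2:130284402-130284701 (minus strand) for Idh3b, chrX:73786848-73787147 (minus strand) for Idh3g and chr5:135778399-135778698 (plus strand) for Mdh2.
Idh3b: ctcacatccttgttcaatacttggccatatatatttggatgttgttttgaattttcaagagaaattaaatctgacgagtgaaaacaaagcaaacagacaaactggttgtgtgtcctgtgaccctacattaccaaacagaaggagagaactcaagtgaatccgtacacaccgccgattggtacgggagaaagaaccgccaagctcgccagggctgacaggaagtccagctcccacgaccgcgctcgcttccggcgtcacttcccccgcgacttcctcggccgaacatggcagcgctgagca
Idh3g: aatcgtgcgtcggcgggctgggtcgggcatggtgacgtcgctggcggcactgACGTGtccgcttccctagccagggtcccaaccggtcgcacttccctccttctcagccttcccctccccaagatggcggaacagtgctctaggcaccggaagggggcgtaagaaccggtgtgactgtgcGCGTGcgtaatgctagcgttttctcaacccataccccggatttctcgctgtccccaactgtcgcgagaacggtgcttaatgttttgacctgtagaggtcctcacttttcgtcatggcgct
Mdh2: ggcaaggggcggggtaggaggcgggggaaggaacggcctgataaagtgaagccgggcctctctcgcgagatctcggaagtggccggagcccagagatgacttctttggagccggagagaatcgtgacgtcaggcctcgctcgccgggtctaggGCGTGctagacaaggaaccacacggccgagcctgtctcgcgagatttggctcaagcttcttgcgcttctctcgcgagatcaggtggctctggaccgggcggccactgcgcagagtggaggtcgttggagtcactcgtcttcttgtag
The Idh3b window held neither core, the Idh3g window held each core 1 time, and the Mdh2 window held GCGTG 1 time. Of the 9 genes, 8 were matched in the promoter table, with several windows for Ogdh. Of these 8 genes, 5 held either core in at least 1 window (Idh3g, Ogdh, Suclg1, Fh1 and Mdh2), against 46.7% of all 27025 genes in the table. ACGTG was present in 2 of the 8 genes and in 21.8% of all genes, and GCGTG in 5 of the 8 and in 35.2% of all genes. A match describes the letters of the window and is not evidence of a bound site.

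Each library's description ends in a code of digits that recurs once in every group. Its meaning is not given, and the letters X, Y and Z stand for the 3 codes here. Code Z marks replicate 2 of standard oxygen and replicate 3 of both hypoxia groups. Over log2(TPM + 1), the code Z libraries correlated with those of codes X and Y at 0.944 to 0.959 within a group, while codes X and Y correlated at 0.979 to 0.984 (a description across genes). The macrophage markers, 8 of 8, were above 1 TPM in every library, but not all were even across codes. Mertk, a receptor for the uptake of dying cells, was 2.21 to 3.37 TPM in the code Z libraries and 21.8 to 33.3 in the other 6. Adgre1, which encodes F4/80, was low in 1 library only, at 253 TPM in the chronic code Z library. It was 488 and 476 TPM in the code Z libraries of standard oxygen and acute hypoxia, and 474 to 581 TPM in the other 6. All 6 fibroblast, 6 lymphocyte and 6 dendritic cell markers were under 1 TPM in all 9 libraries. Of 6 granulocyte markers, 4 were under 1 TPM in all libraries. The summed granulocyte markers, nearly all S100a8, were 896 to 1624 TPM in standard oxygen, 939 to 1941 in acute hypoxia and 260.3 to 618 in chronic hypoxia, with the code Z library highest in each group. Cebpe, a granulocyte transcription factor gene, was 30.6 to 36.1 TPM in the code Z libraries and 0.732 to 1.92 in the other 6. The 6 cell cycle markers were present throughout, with sums of 364 to 454, 415 to 437 and 440.3 to 558 TPM in standard oxygen, acute and chronic hypoxia. Of these, Mki67 was 4.81, 4.68 and 10.4 TPM in standard oxygen, 6.37, 6.16 and 14.3 in acute hypoxia and 14.3, 15.5 and 28.9 in chronic hypoxia for codes X, Y and Z. It was thus highest in code Z within each group and higher in chronic hypoxia within each code. Top2a, Ccnb1, Cdk1 and Mcm5 had the same order. Pcna, the largest part of these sums, was instead lowest in code Z within each group. For codes X, Y and Z it was 350, 366 and 211 TPM in standard oxygen and 268, 275 and 264 in chronic hypoxia. The part of these marker differences in the results below was not tested. Because TPM keeps no read totals, the sequencing depth behind these values is unknown. In bulk libraries, fewer cells of a type and less RNA per cell cannot be told apart.

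Together, the 9 transcripts made up 0.0689% to 0.0977% of each library. Their summed level was 796, 810.1 and 977 TPM in the standard oxygen libraries of codes X, Y and Z. It was 765, 759.7 and 955 TPM in acute hypoxia and 707, 689 and 972 TPM in chronic hypoxia, in the same order of codes. The code Z library was the highest in each group, and the groups overlapped. The group means were 861 ± 101, 827 ± 111 and 789 ± 159 TPM (SD, n = 3) in standard oxygen, acute and chronic hypoxia.

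Transcript levels, which TPM allows to be compared between genes, put Mdh2 far above the others. Over the 9 libraries Mdh2 ranged from 202 to 328 TPM, with a mean of 272. Behind it came a band of 5 genes whose ranges overlapped one another: Idh3b (mean 97.2), Cs (89.9), Idh3g (83.0), Dlst (80.9) and Ogdh (78.9 TPM). Suclg1, with a mean of 51.2 and a range of 45.3 to 58.2 TPM, lay below every value of those 5. The lowest were Idh3a (mean 37.8, range 30.0 to 46.3) and Fh1 (mean 35.3, range 24.5 to 59.1 TPM), which overlapped each other and Suclg1. The catalytic subunit gene Idh3a was thus below both of its partner subunit genes in all 9 libraries.

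**Figure D1:**
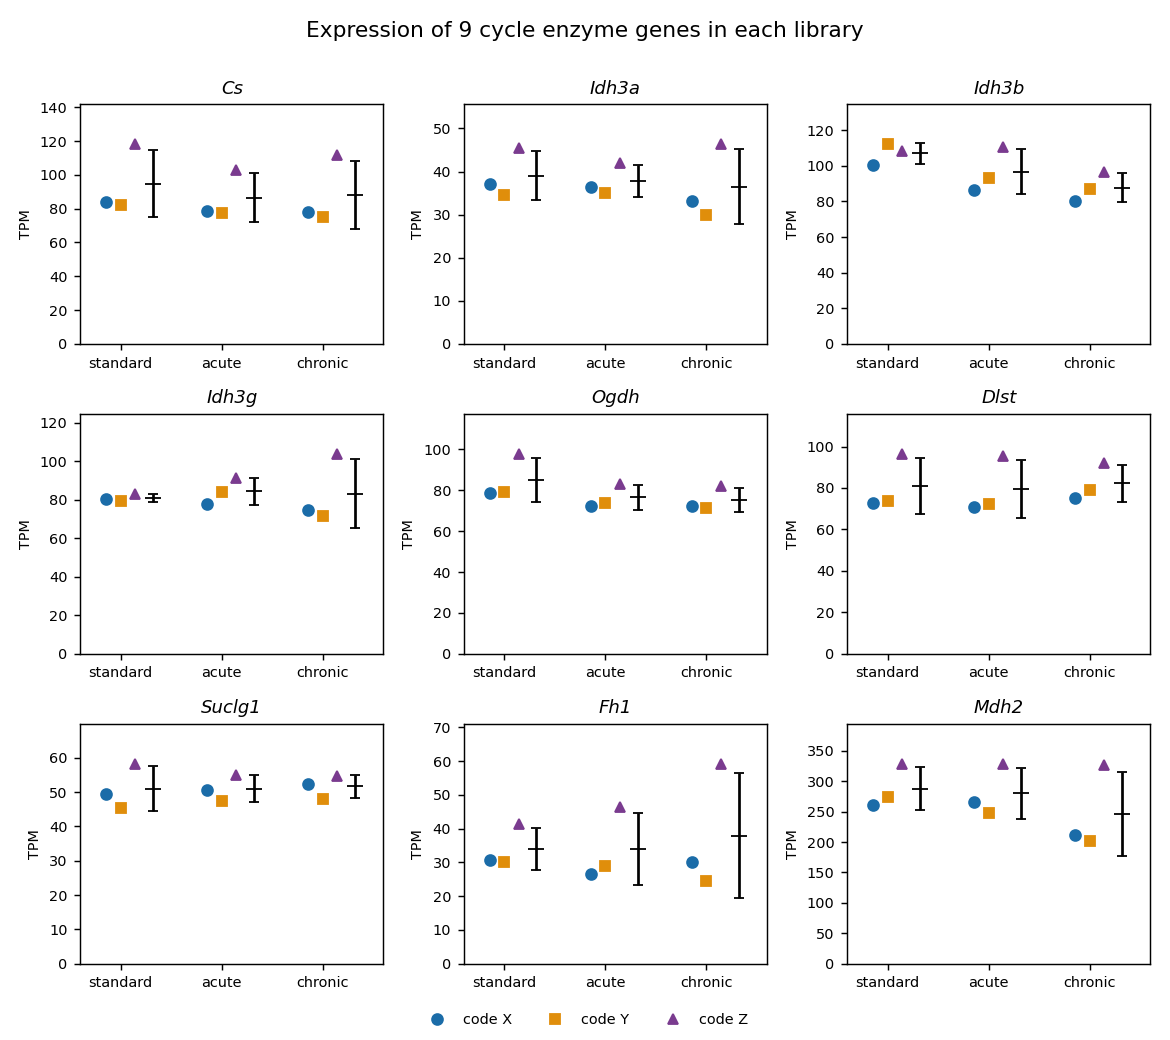
Expression of the 9 genes in TPM (vertical axes, starting at 0) in each library, by group, with code X, Y and Z as circles, squares and triangles and the mean ± SD of 3 libraries as bars. In 7 of the 9 genes the 3 triangles lie above all 6 other libraries, an order whose share was not counted over all genes. The groups overlap in every panel except Idh3b in chronic hypoxia against standard oxygen.

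The first steps of the cycle, citrate synthase and the NAD-dependent isocitrate dehydrogenase, showed 2 patterns (gene positions are from GENCODE M21 on GRCm38). Cs (ENSMUSG00000005683, chr10:128337734-128362479), which joins acetyl-CoA to oxaloacetate, was 84.2, 82.4 and 118 TPM in the standard oxygen libraries of codes X, Y and Z. It was 78.9, 77.3 and 103 TPM in acute hypoxia and 78.2, 75.1 and 112 TPM in chronic hypoxia, in that order. The code Z library was high in each group, and within each code both hypoxia libraries were slightly below the standard oxygen library. Idh3a (ENSMUSG00000032279, chr9:54586334-54604661), the catalytic subunit of isocitrate dehydrogenase, was 37.1, 34.6 and 45.5 TPM in standard oxygen, 36.4, 35.1 and 42.0 in acute hypoxia and 33.2, 30.0 and 46.3 in chronic hypoxia. In chronic hypoxia it was lower than in standard oxygen for codes X and Y and not for Z.

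Idh3b (ENSMUSG00000027406, chr2:130279309-130284547), a noncatalytic subunit needed for the activity of the same enzyme, was 100.3, 112 and 109 TPM in standard oxygen, 86.4, 93.1 and 111 in acute hypoxia, and 80.0, 87.1 and 96.4 in chronic hypoxia. All 3 chronic hypoxia libraries lay below all 3 standard oxygen libraries, while the acute libraries overlapped both groups. Idh3g (ENSMUSG00000002010, chrX:73778963-73786897), the regulatory partner subunit, was 80.6, 79.3 and 83.2 TPM in standard oxygen, 77.8, 84.2 and 91.6 in acute hypoxia, and 74.6, 71.6 and 104 in chronic hypoxia. Its standard oxygen libraries lay close together, and its chronic libraries were spread around them, with code Z above and codes X and Y below.

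In the middle of the cycle, Ogdh (ENSMUSG00000020456, chr11:6291633-6356642) encodes the first enzyme of the 2-oxoglutarate dehydrogenase complex and Dlst (ENSMUSG00000004789, chr12:85110833-85134845) its succinyltransferase core. Ogdh was 78.8, 79.2 and 97.6 TPM in standard oxygen, 72.4, 73.7 and 83.3 in acute hypoxia, and 72.3, 71.4 and 81.9 in chronic hypoxia. Within each code the standard oxygen library was the highest of the 3, although the groups overlapped. Dlst was 73.0, 73.5 and 96.3 TPM in standard oxygen, 70.8, 72.2 and 95.4 in acute hypoxia, and 75.3, 79.1 and 92.1 in chronic hypoxia. Suclg1 (ENSMUSG00000052738, chr6:73248382-73276911), the alpha subunit common to both forms of succinate-CoA ligase, was 49.5, 45.3 and 58.2 TPM in standard oxygen, 50.6, 47.4 and 55.1 in acute hypoxia, and 52.3, 47.9 and 54.7 in chronic hypoxia. For Dlst and Suclg1 the 3 groups covered nearly the same range.

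At the end of the cycle, Fh1 (ENSMUSG00000026526, chr1:175600374-175625635) encodes fumarase, which hydrates fumarate to malate. It was 30.6, 30.0 and 41.3 TPM in standard oxygen, 26.7, 29.0 and 46.3 in acute hypoxia, and 30.2, 24.5 and 59.1 in chronic hypoxia. Its mean over the code Z libraries was 1.72 times that over the other 6, the largest such ratio of the 9 genes. Mdh2 (ENSMUSG00000019179, chr5:135778480-135790398), the mitochondrial malate dehydrogenase that regenerates oxaloacetate, was 262, 274 and 328 TPM in standard oxygen, 265, 248 and 328 in acute hypoxia, and 211, 202 and 326 in chronic hypoxia. For codes X and Y the chronic library was the lowest of the 3, whereas the 3 code Z libraries were nearly equal.

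Acute hypoxia against standard oxygen asks which transcripts respond within hours of low oxygen. None of the 9 genes met the test: 0 passed limma at a Benjamini-Hochberg adjusted p under 0.05, and 0 had an unadjusted p under 0.05. Over all 10987 genes tested, 0.0273% passed and 785 had an unadjusted p under 0.05. Log2 fold changes on the log2(TPM + 1) scale ran from -0.15 (Ogdh and Idh3b) to 0.057 (Idh3g), with 7 of 9 below 0 and a median of -0.040, beside 0.011 over all genes. The 95% intervals reached from -0.59 to 0.54 at their widest, both for Fh1. A second fit used the code as a block, because the deviations of same-code libraries correlated. Those correlations do not show the pairing of X with X and Y with Y. With this block 0 of the 9 passed again and 0 had an unadjusted p under 0.05. Among all 10987 genes 0.71% passed and 1555 had an unadjusted p under 0.05. The intervals then reached from -0.36 (Idh3b) to 0.23 (Idh3g). No member's acute libraries all lay below its standard oxygen libraries, as 4.85% of all genes did. Cs, Ogdh and Dlst were lower in 3 of 3 same-code pairs, as were 16.9% of all genes.

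Chronic hypoxia against standard oxygen asks what differs after days at low oxygen. As deposited, 0 of the 9 passed limma at a Benjamini-Hochberg adjusted p under 0.05, beside 2.69% of 11067 genes. An unadjusted p under 0.05 was found for 1 of the 9 (Idh3b), beside 2533 of the 11067 genes. Blocking on the code, 0 of the 9 passed, beside 18.4% of all genes. In that fit 2 of the 9 (Idh3b and Ogdh) had an unadjusted p under 0.05, beside 4253 of the 11067 genes. The log2 fold changes ran from -0.28 to 0.069 with a median of -0.11, while the median over all genes tested was 0.16. After median-of-ratios rescaling, which brought the median of all genes to -0.0023, all 9 members lay below 0, between -0.46 and -0.11, with a median of -0.29. The signs of Idh3g, Dlst, Suclg1 and Fh1, which were above 0 as deposited, therefore rest on the scaling.

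Idh3b had the lowest value of the 9. It averaged 107 ± 6.04 TPM in standard oxygen and 87.8 ± 8.24 in chronic hypoxia (SD, n = 3). The difference was -0.28 on the log2 scale, with an SE of 0.11 and a 95% interval of -0.54 to -0.028. In all 3 same-code pairs chronic was lower, by -0.32, -0.36 and -0.17 for codes X, Y and Z, and Idh3b was the only one of the 9 whose groups did not overlap. Over all genes, 5.39% were lower with no overlap and 12.6% were lower in 3 of 3 same-code pairs. The limma adjusted p of Idh3b was 0.185 as deposited and 0.055 with the code block. It was 0.028 with the code block and rescaling, where the log2 fold change was -0.46, and 0.029 with the code block and all 9 libraries in 1 fit, in which 26.3% of all genes passed.

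Mdh2 averaged 288 ± 35.6 TPM in standard oxygen and 247 ± 69.2 TPM in chronic hypoxia (SD, n = 3), or -0.25 on the log2 scale with an SE of 0.20 and a limma adjusted p of 0.506. Without the code Z libraries, which were 328 and 326 TPM, its log2 fold change was -0.37 with a limma adjusted p of 0.022. It was then the only member to pass, in a fit where 21.1% of all genes passed. Ogdh differed by -0.17 with an SE of 0.12 (log2) and a limma adjusted p of 0.444. With the code block and rescaling it was lower by -0.35 with a limma adjusted p of 0.037. Idh3b and Ogdh were the 2 of 9 members that passed in that fit, in which 5.94% of all genes passed as lower. Cs, Idh3b, Ogdh and Mdh2 were lower in 3 of 3 same-code pairs, as were 12.6% of all genes. Of the members, 0 were higher in 3 of 3, a share that was not counted over all genes.

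The differences of the other 6 were smaller than their SE without a block. Cs was -0.11 with an SE of 0.21, and Idh3a was -0.11 with an SE of 0.19 (log2). With the code block the SE was 0.061 for Cs and 0.080 for Idh3a, below the size of their differences, and the limma adjusted p was 0.267 and 0.361. The same-code differences of Cs were -0.11, -0.13 and -0.081 for codes X, Y and Z. Idh3g, Dlst and Suclg1 lay between 0.019 and 0.029, with an SE of 0.15, 0.15 and 0.12. Fh1 was 0.069 with an SE of 0.32, and its 95% interval of -0.71 to 0.84 was the widest of the 9. Without the code Z libraries Fh1 was -0.15 and Idh3g -0.13. In 7 of the 9 genes all code Z libraries lay above all other libraries of the 3 groups. The share of all genes with this order was not counted, so it is not shown to be particular to the 9. Within each group the code Z library had the highest granulocyte marker sum, while between groups the sum was lowest in chronic hypoxia. The part of these markers in the levels was not tested.

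**Figure D2:**
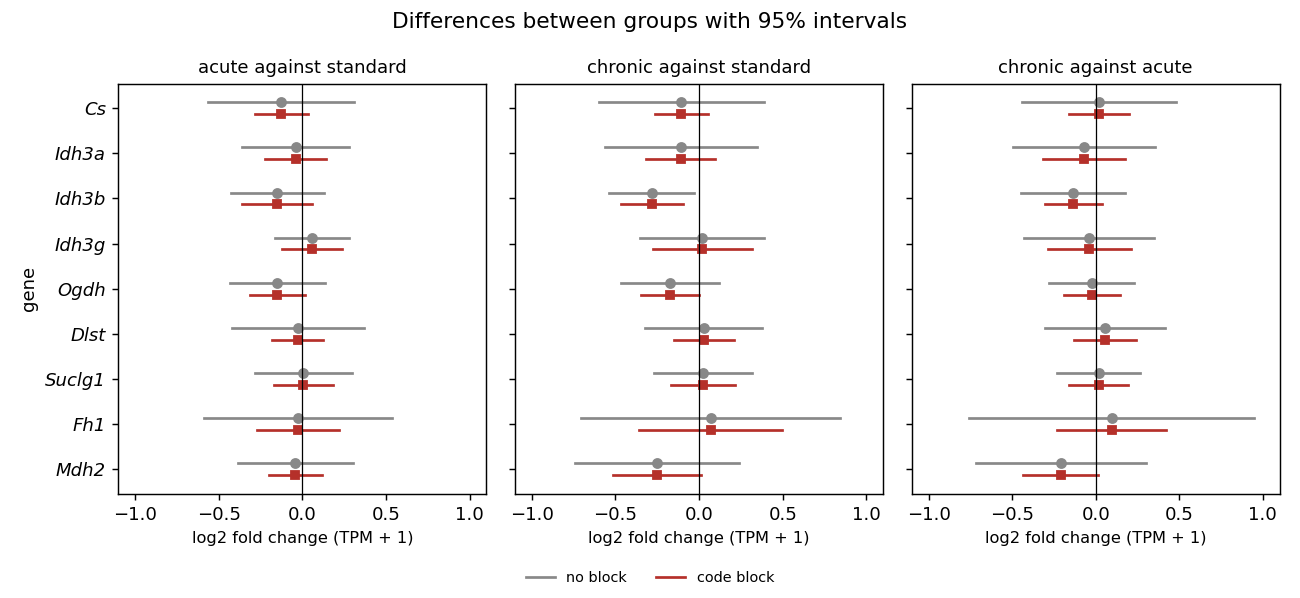
Log2 fold change of each gene on the log2(TPM + 1) scale (horizontal axes) in the 3 comparisons, with 95% intervals from limma without a block (grey circles) and with the code as a block (red squares), 3 libraries per group. Idh3b in chronic hypoxia against standard oxygen is the only gene whose interval without a block, -0.54 to -0.028, does not include 0.

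Chronic against acute hypoxia compares the lengths of exposure. Again 0 of the 9 passed limma at a Benjamini-Hochberg adjusted p under 0.05 and 0 had an unadjusted p under 0.05. Among 11087 genes, 0.695% passed and 2305 had an unadjusted p under 0.05. Blocking on the code, both counts were 0 as well, beside 15.5% of all genes that passed and 3953 with an unadjusted p under 0.05. The log2 fold changes ran from -0.21 (Mdh2) to 0.095 (Fh1), with a median of -0.024 beside 0.14 over all genes. After rescaling all 9 lay below 0, from -0.37 to -0.058. Idh3b, Ogdh and Mdh2 were lower in 3 of 3 same-code pairs, as were 12.9% of all genes. This comparison shares its chronic libraries with the preceding one and its acute libraries with the first, so the 3 sets of values are not independent.

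Ratios within a library do not depend on how the library was scaled. For the 3 subunit genes of isocitrate dehydrogenase and for Dlst over Ogdh, 4 ratios were compared in 3 comparisons by a two-sided exact permutation test of the mean log2 ratio. With 3 libraries against 3 the smallest p it can give is 0.1, so no ratio could pass 0.05. The ratio of Idh3b to Idh3g was 1.24, 1.41 and 1.30 in the standard oxygen libraries of codes X, Y and Z. In acute hypoxia it was 1.11, 1.11 and 1.21, and in chronic hypoxia 1.07, 1.22 and 0.929. Every library of both hypoxia groups lay below all 3 standard oxygen libraries. The mean log2 ratio was lower by -0.21 in acute and by -0.31 in chronic hypoxia, each with an exact permutation p of 0.1 and an adjusted p of 0.4 over the 12 tests.

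Dlst and Ogdh encode parts of the same complex in nearly equal amounts. Their ratio was 0.926, 0.928 and 0.986 in standard oxygen, 0.979, 0.979 and 1.15 in acute hypoxia, and 1.04, 1.11 and 1.13 in chronic hypoxia. The 3 chronic libraries lay above the 3 standard oxygen libraries, by 0.20 in the mean log2 ratio (exact permutation p of 0.1, adjusted p of 0.4). The ratio of Idh3b to Idh3a was 2.78 ± 0.433, 2.56 ± 0.157 and 2.46 ± 0.412 (SD, n = 3) in standard oxygen, acute and chronic hypoxia. That of Idh3g to Idh3a was 2.10 ± 0.241, 2.24 ± 0.140 and 2.29 ± 0.0803. In both of these ratios the groups overlapped, with exact permutation p-values of 0.3 to 0.7.

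**Figure D3:**
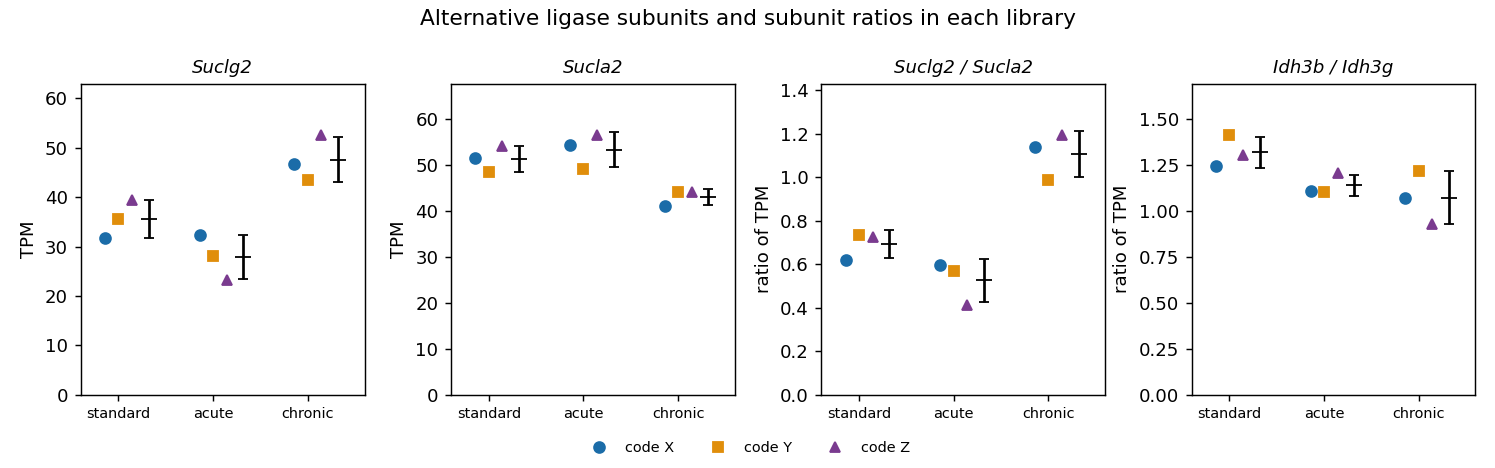
Levels of Suclg2 and Sucla2 in TPM and the ratios Suclg2/Sucla2 and Idh3b/Idh3g (vertical axes, starting at 0) in each library by group, with code X, Y and Z as circles, squares and triangles and the mean ± SD of 3 libraries as bars. The Suclg2/Sucla2 ratio is 0.987 to 1.19 in chronic hypoxia and at most 0.732 elsewhere, and the Idh3b/Idh3g ratio is at least 1.24 in standard oxygen and at most 1.22 in both hypoxia groups.

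Other cycle enzymes were described from a list of 8 genes: lipoamide dehydrogenase, the alternative ligase subunits, the 4 succinate dehydrogenase subunits and the NADP-dependent mitochondrial Idh2. Without a block 0 of these 8 passed limma in any comparison at an adjusted p under 0.05, with 0, 2 and 2 at an unadjusted p under 0.05 in acute and chronic hypoxia against standard oxygen and in chronic against acute hypoxia. The shares of all genes that passed were 0.0273%, 2.69% and 0.695% in the same order. An unadjusted p under 0.05 was found for 785 of 10987, 2533 of 11067 and 2305 of 11087 genes. Suclg2, the GTP-forming beta subunit of succinate-CoA ligase and a partner of Suclg1, was 31.8, 35.5 and 39.4 TPM in standard oxygen, 32.4, 28.0 and 23.3 in acute hypoxia, and 46.8, 43.5 and 52.5 in chronic hypoxia. All chronic libraries lay above all others. Its log2 fold change in chronic hypoxia was 0.41 with an SE of 0.12 against standard oxygen and 0.76 with an SE of 0.15 against acute hypoxia. The limma adjusted p-values were 0.123 and 0.0687 as deposited, 0.033 and 0.028 with the code block, and 0.133 and 0.0577 with the code block and rescaling. Part of its level is uncertain, since 16.0% of its 75-base stretches also occur in another annotated gene, Gm15163. The 9 described genes shared 0 such stretches.

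Sucla2, the ATP-forming beta subunit, lay on the other side. It was 51.4, 48.5 and 54.1 TPM in standard oxygen, 54.4, 49.2 and 56.4 in acute hypoxia, and 41.1, 44.1 and 44.0 in chronic hypoxia, and all chronic libraries were below all others. Its log2 fold change in chronic hypoxia against standard oxygen was -0.25 with an SE of 0.094 and a limma adjusted p of 0.187, which became 0.031 with the code block and rescaling. The ratio of Suclg2 to Sucla2, computed after these values had been seen, was 0.692 ± 0.0648, 0.526 ± 0.0984 and 1.11 ± 0.106 (SD, n = 3) under standard oxygen, acute and chronic hypoxia. Chronic hypoxia was higher by 0.67 against standard oxygen and by 1.09 against acute hypoxia in the mean log2 ratio. The exact permutation p of each was 0.1, the smallest possible. Since all chronic libraries were already above the others for Suclg2 and below them for Sucla2, this p was fixed in advance. It adds no support. With the code block and rescaling, Dld, Sdhc and Sucla2 were the members of this list that passed in chronic hypoxia against standard oxygen, all lower, by -0.36 to -0.43. Idh2 was lower by -0.34 (limma adjusted p of 0.046) without the code Z libraries and by -0.16 (0.601) with them.

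Genes of the cytosolic counterparts and of citrate, malate and 2-oxoglutarate transport formed a list of 8. In acute hypoxia 0 of the 8 passed limma with or without the code block, with 1 and 0 at an unadjusted p under 0.05. Of all genes, 0.71% passed with the block and 0.0273% without it. An unadjusted p under 0.05 was found for 1555 of 10987 genes with the block and 785 without it. The lowest of the 8 was Slc25a10 (-0.14) and the highest Idh1 (0.24, log2). In chronic hypoxia Me1, the cytosolic malic enzyme that makes NADPH and pyruvate from malate, fell from 19.5, 21.4 and 21.1 TPM in standard oxygen to 9.05, 7.79 and 6.99 TPM. Acute hypoxia, at 18.8, 20.4 and 20.2 TPM, was near standard oxygen. The log2 fold change was -1.28 with an SE of 0.13 against standard oxygen (limma adjusted p of 0.0101) and -1.22 with an SE of 0.12 against acute hypoxia (limma adjusted p of 0.0256). Leaving out replicate 1 or 3 of standard oxygen or replicate 2 of chronic hypoxia raised the first adjusted p to 0.0658, 0.0825 and 0.0797, and leaving out replicate 1 or 2 of acute or of chronic hypoxia raised the second to 0.139 to 0.184. Since 23.1% of the 75-base stretches of Me1 also occur elsewhere, part of its level is uncertain.

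With the code block 2 more of the 8 passed in chronic hypoxia against standard oxygen, 3 in all, beside 18.4% of all genes. Slc25a10, the mitochondrial dicarboxylate carrier, was lower by -0.42 with an SE of 0.098 (limma adjusted p of 0.0781, and 0.027 with the block). Its levels were 77.4, 82.0 and 81.0 TPM in standard oxygen and 59.7, 64.4 and 54.8 TPM in chronic hypoxia, without overlap. Slc25a10 shares 7.90% of its stretches with another gene. Idh1, the cytosolic NADP-dependent isocitrate dehydrogenase, was higher by 0.34 with an SE of 0.12 (limma adjusted p of 0.163, and 0.027 with the block), and 0.150 once rescaling was added. Slc25a11, the 2-oxoglutarate carrier, was higher by 0.30 (limma adjusted p of 0.038) without the code Z libraries and by 0.25 (0.176) with them. In chronic against acute hypoxia Me1 alone passed, and the highest of the list was Slc25a11 (0.28, log2).

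Of 9 genes for the entry of carbon into the cycle, 0 passed in acute hypoxia in limma, with 1 of them under an unadjusted p of 0.05 without a block and 2 when the code was a block. The shares of all genes that passed were 0.0273% without a block and 0.71% with it. An unadjusted p under 0.05 was found for 785 of 10987 genes without a block and 1555 with it. The highest of the 9 was Me2, the mitochondrial malic enzyme (0.31), and the lowest Pck2, mitochondrial phosphoenolpyruvate carboxykinase (-0.33, log2). In chronic hypoxia against standard oxygen 0 passed without a block, with 2 at an unadjusted p under 0.05, beside 2533 of all 11067 genes. With the code block 2 passed, beside 18.4% of all genes. Got1, the cytosolic aspartate aminotransferase of the malate-aspartate shuttle, was 12.7, 12.9 and 11.1 TPM in standard oxygen, 11.3, 9.88 and 12.5 in acute hypoxia, and 21.1, 20.2 and 16.5 in chronic hypoxia. Its chronic libraries lay above all others. The log2 fold change was 0.61 with an SE of 0.13 against standard oxygen (limma adjusted p of 0.0686, and 0.017 with the code block). Against acute hypoxia it was 0.73 with an SE of 0.14 (0.0725, and 0.032 with the code block). Once rescaling was added to the block, that difference was 0.58 with an adjusted p of 0.0639.

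Mpc2, a subunit of the mitochondrial pyruvate carrier, was 82.1, 90.4 and 167 TPM in standard oxygen, 86.1, 98.8 and 159 in acute hypoxia, and 62.6, 67.9 and 112 in chronic hypoxia. The code Z library was high in each group, so the groups overlapped, but each chronic library was the lowest of its code. The log2 fold change was -0.46 against standard oxygen and -0.50 against acute hypoxia. The SE fell from 0.33 and 0.30 without a block to 0.071 and 0.066 with the code block. The limma adjusted p fell from 0.455 and 0.395 to 0.023 and 0.015.

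Side reactions of cycle intermediates were covered by Acod1, which makes itaconate, and by D2hgdh and Adhfe1, enzymes of hydroxy acid metabolism. Without a block 0 of the 3 passed limma in any comparison, with 0, 1 and 1 at an unadjusted p under 0.05 in the order used above. The shares of all genes that passed were 0.0273%, 2.69% and 0.695% in that order. An unadjusted p under 0.05 was found for 785 of 10987, 2533 of 11067 and 2305 of 11087 genes. D2hgdh was the highest of the 3 in each comparison. It was 7.28, 6.73 and 7.60 TPM in standard oxygen and 13.8, 9.52 and 10.3 TPM in chronic hypoxia, a log2 fold change of 0.56 with an SE of 0.16. In limma the adjusted p was 0.114 unblocked, 0.044 with the code block and 0.112 with rescaling added, and 21.2% of its stretches are shared with other genes. The lowest in each comparison was Adhfe1, at -0.15 and -0.16 in acute and chronic hypoxia against standard oxygen and -0.014 in chronic against acute hypoxia. Acod1 was 189, 184 and 640.2 TPM in standard oxygen, 202, 187 and 522 in acute hypoxia, and 313, 263 and 380.5 in chronic hypoxia, with the code Z library highest in each group. Its chronic log2 fold change was 0.16 against standard oxygen and 0.22 against acute hypoxia with all libraries (p of 0.874 and 0.791 after adjustment in limma). After median-of-ratios rescaling it was -0.018 and 0.065. Without the code Z libraries it was 0.62 and 0.56 (p of 0.018 and 0.031 after adjustment in limma), in fits where 2300 of 10924 and 1788 of 10952 genes passed.

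Complex I, which takes electrons from the NADH made by the cycle, was represented by 10 subunit genes. In limma 0 of the 10 passed in acute hypoxia or in chronic hypoxia against standard oxygen, with and without the code block, with 0 and 1 at an unadjusted p under 0.05 in either fit. Of all genes, 0.0273% and 2.69% passed in these comparisons without a block, and 0.71% and 18.4% with it. An unadjusted p under 0.05 was found for 785 of 10987 and 2533 of 11067 genes without a block, and for 1555 and 4253 with it. The acute values of the 10 ran from -0.13 (Ndufs7) to 0.11 (Ndufb8) and the chronic ones from -0.19 (Ndufa10) to 0.33 (Ndufs8, log2). Ndufs8 was 41.7, 49.4 and 49.5 TPM in standard oxygen, 45.1, 47.0 and 50.4 in acute hypoxia, and 59.1, 57.5 and 61.0 in chronic hypoxia. In chronic against acute hypoxia its log2 fold change was 0.31 with an SE of 0.091. For that difference limma gave an adjusted p of 0.138 unblocked, 0.045 with the code block and 0.217 with rescaling added. Ndufa9 was the lowest in that comparison at -0.12.

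The same fits called genes known to be induced by hypoxia. Without a block, 2.69% of all genes passed limma in chronic hypoxia against standard oxygen. Of a list of 8, chosen with their values in these data known, 8 of 8 passed there. All 8 were higher, with a median log2 fold change of 1.49. They included Pdk1, the kinase that restrains pyruvate dehydrogenase, at 53.2 ± 1.72, 92.5 ± 4.15 and 149 ± 1.62 TPM (SD, n = 3) in standard oxygen, acute and chronic hypoxia. After median-of-ratios rescaling without a block, Hilpda and Mxi1 did not pass in chronic hypoxia against standard oxygen (limma adjusted p of 0.101 and 0.0904). The rest of the 8 passed in that fit. In acute hypoxia 2 of the 8 passed without a block (Hilpda and Mxi1) and 7 with the code block, with a median of 2.04. The shares of all genes that passed were 0.0273% and 0.71%. Leaving out 1 library at a time, without a block, left 0 (without chronic replicate 2), 2 (without standard oxygen replicate 3), 4 (without replicate 1 of either group) or 8 of the 8 past the threshold in chronic hypoxia against standard oxygen. It left 0 to 5 in acute hypoxia, with 0 without replicate 1 or 3 of standard oxygen or replicate 2 of acute hypoxia. In chronic against acute hypoxia Hilpda was lower (-1.73) and Pdk1 higher (0.68) without a block. The code block added Mxi1, lower at -0.52, and Egln3, higher at 1.92 (limma adjusted p of 0.0169 and 0.0141). With rescaling and no block, Hilpda and Egln3 passed in that comparison and Pdk1 did not (limma adjusted p of 0.00688, 0.048 and 0.0864). Without a block, leaving out replicate 1 or 2 of acute or of chronic hypoxia left 0 of the 8 past the threshold in that comparison.

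**Figure D4:**
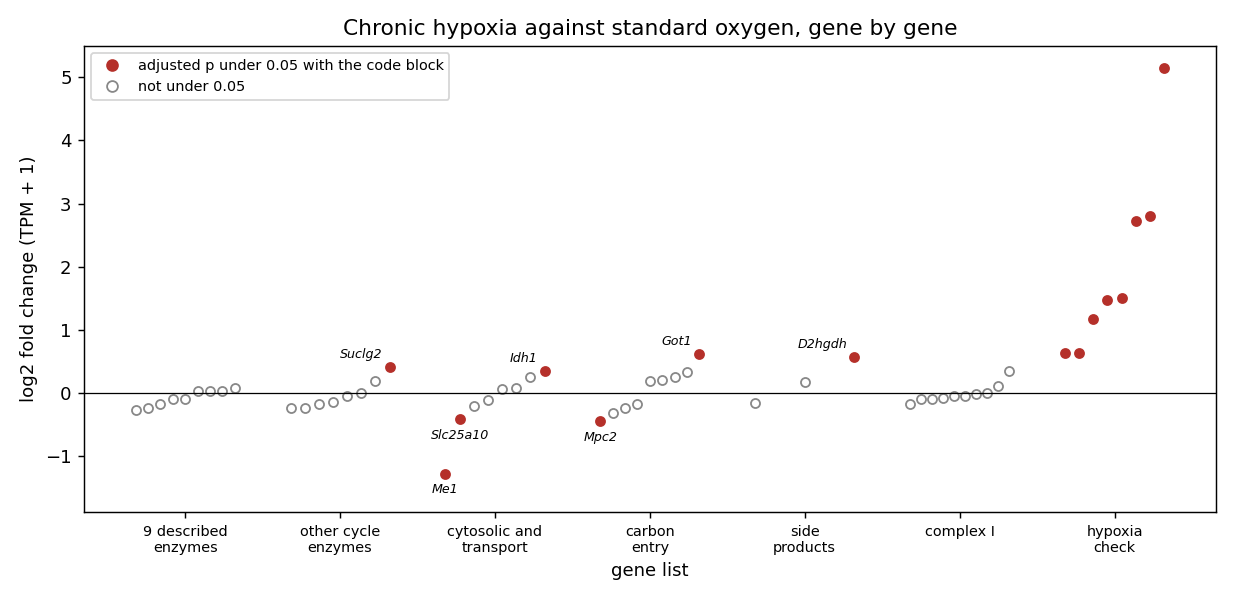
Log2 fold change on the log2(TPM + 1) scale (vertical axis) of every tested gene of the 7 lists (horizontal axis) in chronic hypoxia against standard oxygen, 3 libraries per group, with filled points for an adjusted p under 0.05 in limma with the code block. The 9 described enzymes lie between -0.28 and 0.069 with 0 filled points, and the 8 hypoxia-induced genes lie between 0.63 and 5.16, all filled.

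The transcripts most like the 9 were sought by the Pearson correlation with their mean standardized log2(TPM + 1) profile over the 9 libraries, among 7098 genes with a mean of at least 10 TPM. They were Mtdh (r = 0.991), Cd38 (0.986), Nedd4 (0.981), Tmem40 (0.979) and Klra2 (0.977), given as a description over libraries that share codes and groups. Each was higher in all 3 code Z libraries than in the other 6. Mtdh was 178 to 197 TPM in the code Z libraries and 72.5 to 102 in the others, and Nedd4 was 27.9 to 39.4 and 1.36 to 3.88 TPM. Of the 9 enzyme genes, 7 had the same order, and Idh3b and Idh3g did not. How many of all genes had this order was not counted.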

How the data were processed

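Libraries were prepared with the Illumina TruSeq chemistry and sequenced as paired 75-base reads, per the labels' protocols. The authors deposited 3 tables of TPM, 1 for each pair of groups, with identical values for shared libraries and columns that sum to 1000000. FastQC, STAR, featureCounts and the build GRCm38 are named, without versions, in the submitters' processing notes; the role and order of these tools are not given in the sources used here. TPM is a share of each library's total, so a change in abundant genes moves all others, and it keeps no read depth: no counting error was attached to a value, and the spread over 3 libraries was the only error.

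Symbols were matched by identifier for 34582 of 34866 genes. Each pair of groups was fitted in R 4.3.3 with limma 3.58.1 (linear fit, trended eBayes, two-sided tests) on log2(TPM + 1), over genes with a mean of at least 1 TPM in the 6 libraries. The Benjamini-Hochberg adjustment covered all genes tested, and an adjusted p under 0.05 was called passing. Log2 fold changes on this scale understate the change of low genes. The script was tested on simulated data. The replicate numbers of the titles and the codes of the descriptions pair the libraries differently. Deviations from the group means correlated across genes at 0.375 to 0.631 between libraries of the same code, over 9 pairs. The title numbers gave -0.508 to 0.631 and differ from the codes only in standard oxygen. Between groups, whole libraries correlated at 0.958 to 0.978 for the same code and at 0.956 to 0.976 for code X with Y. The pairing of X with X and Y with Y is therefore not shown by these values. The code was used as the pairing block with this limit.

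The alternatives were other pseudocounts (0.1 and 5), other filters (none, and a mean of 5 TPM), eBayes without the trend, rescaling by median of ratios, quantile normalization, all 9 libraries in 1 fit, either block, leaving out each library, and leaving out the code Z libraries. The genes named of each list were those passing without a block or with the code block, and the highest and lowest log2 fold change in each comparison. Dld, Sdhc, Idh2 and Acod1 met neither rule. They were named after their values were seen, as each passed under another alternative. Mdh1, Slc25a1 and Mpc1 also passed under an alternative but were not described above. With the code block and rescaling they were lower in chronic hypoxia against standard oxygen, by -0.29, -0.40 and -0.43. The limma adjusted p-values were 0.047, 0.033 and 0.044. The members of the 9, the gene lists, the markers and the alternatives were chosen with earlier results of these data known, and the Suclg2 to Sucla2 ratio was added after its values were seen. Shared stretches were counted between the longest GENCODE M21 transcript of each gene and the transcripts of all other genes. Promoter windows came from RefSeq and gene positions from GENCODE M21, both on GRCm38. Some results are not reported here.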

Additional observations from a re-analysis of the deposited data

How the results depend on the processing

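The number of the 9 enzyme genes that passed changed under 3 alternatives, all in chronic hypoxia against standard oxygen, where 0 passed as deposited: the code as replicate block with rescaling gave 2, the code as replicate block with all 9 libraries in 1 fit gave 1 (Idh3b), and leaving out the code Z libraries gave 1 (Mdh2). Of all genes, 5.94% passed as lower in the first of these fits, and 26.3% and 21.1% passed in the others. The replicate block alone, by code or by title number, gave 0 of 9 in each of the 3 comparisons, and among the other named genes the code block changed only the calls given beside them above. Among the alternatives run, signs changed only for log2 fold changes and ratios that had not passed. Median-of-ratios rescaling, with or without the code block, turned Suclg1 to -0.014 in acute hypoxia against standard oxygen. It turned Idh3g, Dlst, Suclg1 and Fh1 to -0.16, -0.15, -0.15 and -0.11 in chronic hypoxia against standard oxygen, and Cs, Dlst, Suclg1 and Fh1 to -0.14, -0.10, -0.14 and -0.058 against acute hypoxia. Quantile normalization gave -0.028 for Suclg1 in the first comparison, then -0.13, -0.14, -0.14 and -0.10 for the same 4 genes, and then -0.097, -0.061, -0.12 and -0.064. Without the code Z libraries, Idh3g and Fh1 were -0.13 and -0.15 in chronic hypoxia against standard oxygen, Cs and Fh1 were -0.026 and -0.031 against acute hypoxia, and Adhfe1 was 0.047 in acute hypoxia against standard oxygen. Acod1 turned from -0.059 to 0.059 in acute hypoxia against standard oxygen without the code Z libraries. In that comparison it was 0.53 without standard oxygen replicate 2 and -0.53 without acute replicate 3, the code Z library of each group. In chronic hypoxia against standard oxygen, median-of-ratios rescaling turned Acod1 to -0.018.

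Leaving out 1 library at a time, the acute hypoxia values against standard oxygen ranged from -0.26 to 0.040 for Cs, -0.12 to 0.072 for Idh3a, -0.0016 to 0.12 for Idh3g, -0.16 to 0.10 for Dlst, -0.073 to 0.10 for Suclg1, -0.26 to 0.12 for Fh1 and -0.16 to 0.056 for Mdh2. In chronic hypoxia against standard oxygen they ranged from -0.28 to 0.060 for Cs, -0.29 to 0.015 for Idh3a, -0.15 to 0.12 for Idh3g, -0.056 to 0.16 for Dlst, -0.056 to 0.12 for Suclg1 and -0.30 to 0.32 for Fh1. Against acute hypoxia they ranged from -0.16 to 0.15 for Cs, -0.25 to 0.055 for Idh3a, -0.20 to 0.060 for Idh3g, -0.086 to 0.038 for Ogdh, -0.029 to 0.19 for Dlst, -0.033 to 0.073 for Suclg1, -0.27 to 0.35 for Fh1 and -0.15 to 0.093 for Adhfe1. The log2 ratio of Idh3b to Idh3a ranged from -0.21 to 0.0076 in acute hypoxia against standard oxygen and from -0.19 to 0.051 in chronic against acute hypoxia, and that of Idh3b to Idh3g from -0.19 to 0.0021 in the latter. The cause of these changes was not tested.

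Over all genes, the number passing in acute hypoxia was 3 as deposited, 0 with the title block, 78 with the code block, 54 with rescaling added, 204 with all 9 libraries added to the block, 25 with all 9 libraries, 21 with rescaling, 23 with quantile normalization, 5 without the trend, 319 without code Z and 0 to 33 without 1 library. In chronic hypoxia against standard oxygen it was 298 as deposited, and in the same order 1, 2039, 1270, 2909 and 764 for the first 5 settings, then 166 without the trend, 120 without a filter, 2300 without code Z and 1 to 522 without 1 library. Against acute hypoxia it was 77, 1724 with either block, 1084, 2450, 415, 25, 7, 1788 and 1 to 308. Of the calls as deposited in the 2 chronic comparisons, 232 of 298 and 61 of 77 were higher, against 115 of 234 and 33 of 81 after rescaling. With 3 libraries a group and unknown depth, changes within the intervals given above cannot be told from replicate spread.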
